A study of Homo sapiens with 5 samples.

Results

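The 10 genes described here encode receptors, signal carriers, inhibitors and targets of TGF-β and BMP signaling: TGFBR2, BMPR2, ENG, BAMBI, SMAD2, SMAD3, SMAD7, TGIF1, ID1 and ID2. They were chosen by name, with earlier results of these data known, and every probe annotated to them was taken from the deposited table of normalized expression values. All 10 genes had a probe, and they are 10 of the 9268 named genes of the table, with 14 of its 14747 probes. TGFBR2, BMPR2, SMAD7 and TGIF1 had more than 1 probe, and the other 6 genes had 1 each. The cells were LX-2, an established human hepatic stellate cell line, transfected with 50 pmol of a biotin-tagged miR-25-3p duplex and lysed after 24 hours. RNA bound to streptavidin beads made up the PD miR-25 group (pull-down, 3 arrays), and the Control group (2 arrays) was lysate of cells that had received the same duplex. The study profiled 3 samples per group and left out 1 control sample because its probes gave low detection signal, so 1 pull-down has no lysate here. That Control stands for lysate is stated in the design text and the methods, while the extraction text in the labels gives the bead capture for both groups. Neither beads alone nor an unrelated duplex was included, so capture with miR-25-3p and other binding to the beads cannot be told apart.

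TGF-β ligands bring type II and type I receptor kinases together, the type I receptor phosphorylates SMAD2 and SMAD3, and these enter the nucleus with SMAD4. BMP ligands use BMPR2 and other receptors to activate a separate set of SMADs, with the ID genes as classical targets. In hepatic stellate cells TGF-β is a main driver of collagen production and of the change to a myofibroblast. miRNAs guide the silencing complex to mRNAs mainly through pairing of their seed, bases 2 to 8, to sites in the target. The transfected miRNA is shown because the pull-down was built on it, with the seed in capitals.

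hsa-miR-25-3p: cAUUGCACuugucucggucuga

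This mature sequence of 22 bases comes from RefSeq (GRCh38.p14, chr7:100093571-100093592, minus strand), where the gene is MIR25. RefSeq lists 6 mature human miRNA names with the seed AUUGCAC, miR-25-3p among them, and a fully paired site reads GUGCAAU. Whether the mRNAs of the 10 genes carry such a site was not analysed here.

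Of these pathway genes, TGIF1 and BMPR2 were lower on the arrays titled as pull-down than on those titled as Control. ENG had a difference as large as that of TGIF1 but did not pass the test, and no gene passed in the other direction. Fold sizes take the deposited scale as log2, though it may be only log2-like. All differences are PD miR-25 minus Control on that scale, with groups from the sample titles. This direction is opposite to the study's: the mRNAs it picked as enriched had lower values on the arrays titled as pull-down. The values of those mRNAs are not shown here. The study's text calls them enriched in the pull-down, while the legend of its volcano plot gives a negative fold change as the threshold for pull-down against lysate. The titled group sizes, 3 pull-down and 2 Control arrays, match the study's account of 1 control sample left out. Exchanged titles would instead give 2 pull-down and 3 Control arrays. No other source used settles whether the titles or the study's sign are exchanged. With exchanged titles every sign given here would turn, so that TGIF1 and BMPR2 would be higher in the pull-down. Limma called 3 of the 14 probes lower at an adjusted p under 0.05, where 7.09% of all probes were called lower. It called 0 of the 14 higher, where 7.64% of all probes were called higher. At an unadjusted p under 0.05, 5 of the 14 were lower (both probes of TGIF1, both of BMPR2 and ENG) and 0 higher, against 14.9% and 16.8% of all probes. With 1 probe a gene, the one of highest mean over all arrays, 2 of the 10 genes were called lower and 0 higher, against 6.72% and 7.10% of all 9268 named genes. Both TGIF1 probes were also at least 2-fold lower, which holds for 3.09% of all probes. The 3 pull-down arrays lay wholly below the 2 Control arrays at 5 of the 14 probes and wholly above them at 1, against 22.4% and 29.0% of all probes. The median log2 fold change of the 10 genes was -0.05, against 0.04 for all named genes. Because the genes were chosen with earlier results of these data known, these shares describe them and do not test them as a set.

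**Figure D1:**
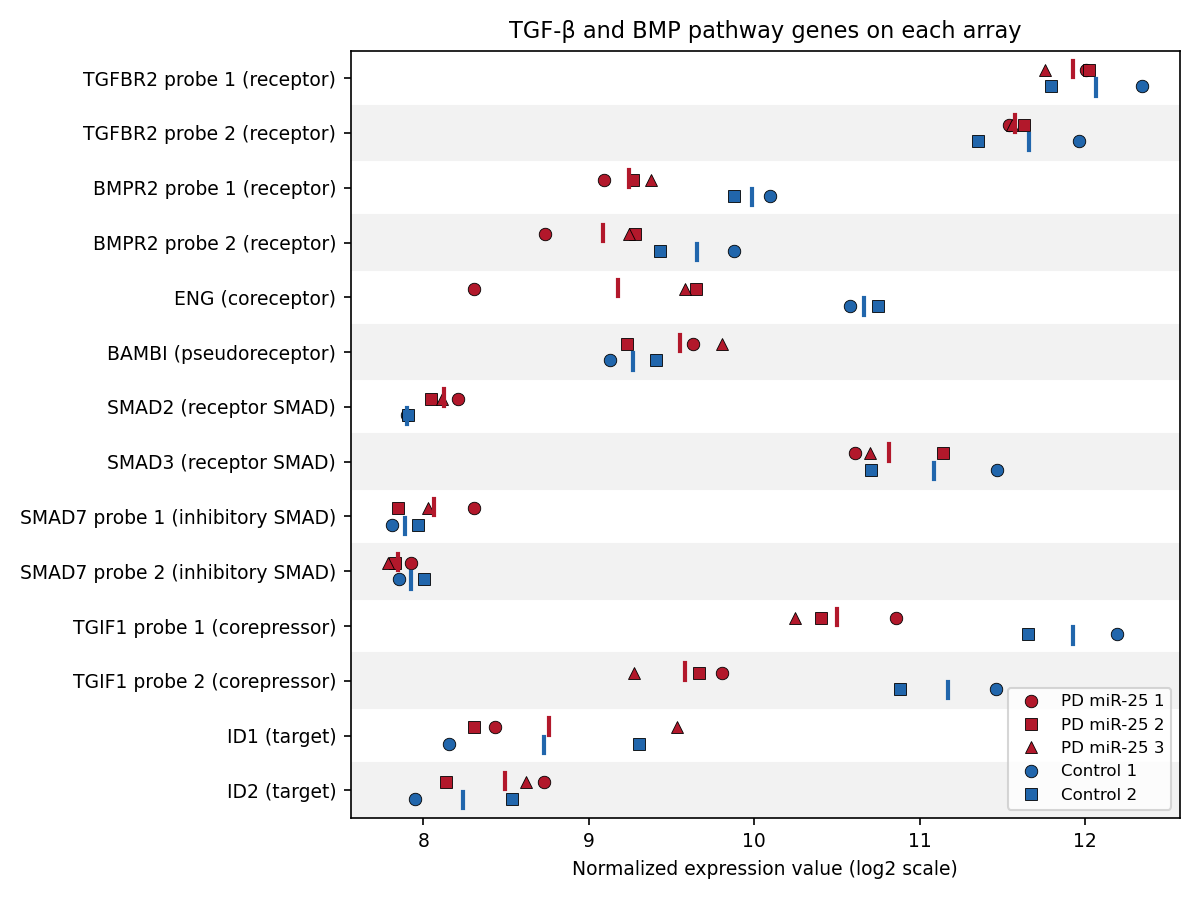
Normalized expression value (log2 or log2-like scale) of each probe of the 10 genes on each array, with PD miR-25 in red, Control in blue and a vertical bar at each group mean. Both TGIF1 probes, both BMPR2 probes and ENG show the 3 pull-down arrays below both Control arrays, SMAD2 shows them above, and the other 8 probes overlap.

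The values of all arrays had medians of 9.01 to 9.03, their lowest values were 7.57 to 7.77 and their highest 14.57 to 14.76. PD miR-25 1 stood somewhat apart, with Pearson correlations over all probes of 0.963 and 0.963 to the other pull-down arrays, which correlated at 0.985 with each other. The Control arrays correlated at 0.980. Of 15 stellate cell markers 12 were measured and 0 were called by limma; their summed level was 120.5 to 130.7 in the pull-down, lowest on PD miR-25 1, and 128.1 to 131.5 in Control. VIM, the mesenchymal filament protein vimentin, was the brightest of them, near the top of the scale on every array (14.05 to 14.33). TIMP1 (12.86 to 13.69) and TAGLN (12.06 to 13.07) were also bright. DCN (7.70 to 8.20), PDGFRB (7.96 to 8.67) and COL1A2 (7.88 to 8.95) came close to the lowest values. Of 8 hepatocyte, 5 macrophage, 5 endothelial and 4 bile duct markers 2, 2, 0 and 1 were measured, with 0 called. The macrophage markers were CD68 (10.46 to 12.25) and CD14 (7.99 to 8.26). With 3 against 2 arrays, 0.1 is the smallest p an exact two-sided permutation test allows, so limma was used, which shares the estimate of spread over all probes. The labels do not say that the samples came from separate cultures, which the study describes as independent biological replicates, and p-values measure only the spread between these samples. The comparison is of bead-bound RNA with lysate RNA on normalized arrays, so a difference does not measure a change of expression in the cells. A lower or higher level here means the normalized array value.

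Among the receptors, TGFBR2, the type II receptor that binds TGF-β and switches on the type I receptor, did not separate the groups. Its probe of higher mean read 12.002, 12.02 and 11.76 on PD miR-25 1, 2 and 3 and 12.34 and 11.79 on Control 1 and 2. The pull-down arrays lay between the Control arrays except PD miR-25 3, which was just below both. The log2 fold change was -0.14 (SE 0.196, 95% interval -0.63 to 0.35, limma adjusted p = 0.669). The second probe read 11.54, 11.63 and 11.55 in the pull-down and 11.96 and 11.35 in Control, so that the pull-down arrays fell within the Control range. Its log2 fold change was -0.08 (SE 0.195, 95% interval -0.57 to 0.40, limma adjusted p = 0.800). The intervals of both probes leave out a 2-fold difference in either direction. Control 1 was higher than Control 2 at both probes, by 0.55 and 0.61, and without Control 1 the log2 fold changes were 0.14 and 0.22.

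BMPR2, the type II receptor for BMP ligands, was lower in the pull-down. The probe of higher mean read 9.09, 9.27 and 9.38 in the pull-down (9.25 ± 0.144, SD, n = 3) and 10.09 and 9.88 in Control (9.99 ± 0.151, SD, n = 2). The groups did not overlap, and the gap between them exceeded the range within either group (0.285 and 0.213). The level was 1.67-fold lower (log2 fold change -0.74, SE 0.140, 95% interval -1.09 to -0.39, limma adjusted p = 0.0263). The second probe read 8.74, 9.28 and 9.24 in the pull-down and 9.87 and 9.43 in Control, again without overlap but with a smaller gap. Its log2 fold change of -0.57 did not pass the test (SE 0.227, 95% interval -1.13 to -0.01, limma adjusted p = 0.154). With both probes averaged, BMPR2 stood at -0.65 (limma adjusted p = 0.0669), so the call rests on the 1 probe.

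ENG encodes endoglin, a coreceptor that binds TGF-β family ligands together with the signaling receptors and is best known from endothelium. It read 8.30, 9.65 and 9.58 on PD miR-25 1, 2 and 3 and 10.58 and 10.75 on Control 1 and 2. All pull-down arrays were below both Control arrays, and PD miR-25 1 was more than 1 below the other pull-down arrays on this scale. The group means were 9.18 ± 0.758 (SD, n = 3) and 10.66 ± 0.119 (SD, n = 2), a 2.80-fold lower level that missed the threshold (log2 fold change -1.48, SE 0.423, 95% interval -2.53 to -0.44, limma adjusted p = 0.0706). Without PD miR-25 1 the difference was smaller, -1.05, and passed (limma adjusted p = 0.0169). ENG also passed with an intensity trend in the variance prior (adjusted p = 0.0316), with array weights (adjusted p = 0.0328) and without the dimmest 25% of probes (adjusted p = 0.0370). PD miR-25 1 is the array that correlated least with its group and had the lowest summed stellate cell markers, and the part of this in the ENG value was not tested.

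BAMBI, a pseudoreceptor that resembles a type I receptor without its kinase and blocks signaling, read 9.63, 9.23 and 9.80 in the pull-down and 9.13 and 9.41 in Control. The groups overlapped, with PD miR-25 2 between the Control arrays and the other pull-down arrays above them. The log2 fold change was 0.29 (SE 0.202, 95% interval -0.21 to 0.79, limma adjusted p = 0.390).

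**Figure D2:**
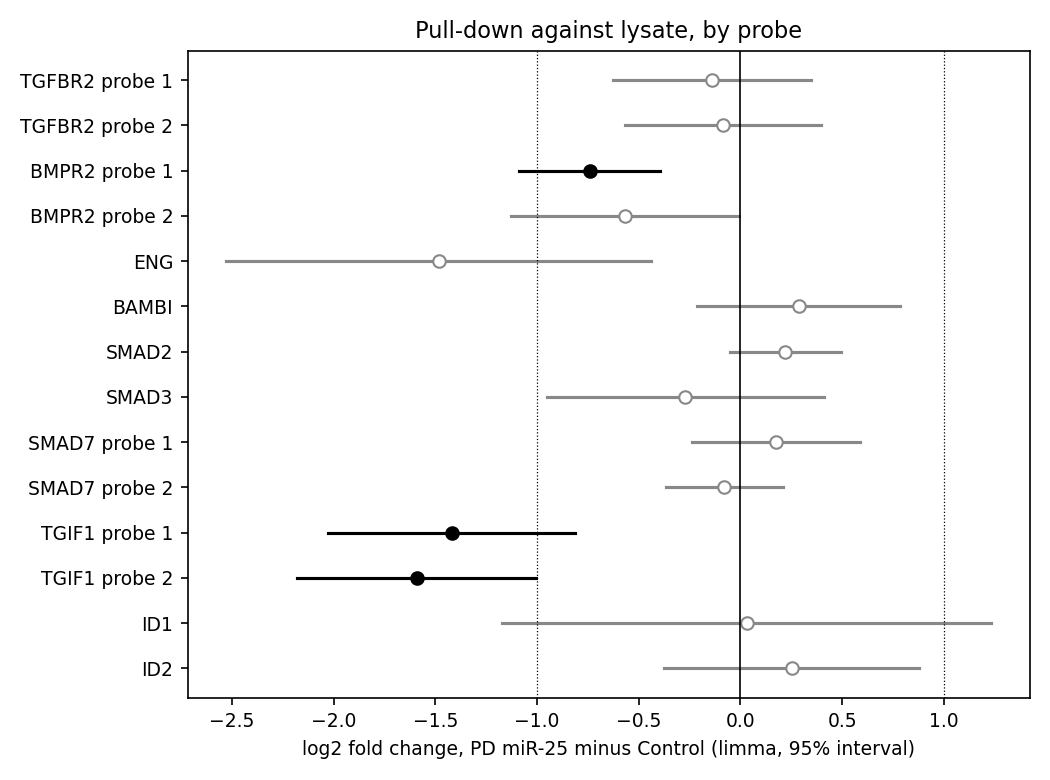
Log2 fold change (PD miR-25 minus Control) of each probe with its 95% interval from limma, with filled points for probes called at an adjusted p under 0.05 and dotted lines at a 2-fold difference. The called probes are both of TGIF1 (-1.42 and -1.59) and 1 of BMPR2 (-0.74), and the widest intervals belong to ENG and ID1.

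SMAD2 and SMAD3 are the receptor SMADs that carry the TGF-β signal to the nucleus. SMAD2 read 8.21, 8.05 and 8.11 in the pull-down and 7.90 and 7.91 in Control, and all pull-down arrays were above both Control arrays. The log2 fold change was 0.22 and did not pass the test (SE 0.111, 95% interval -0.05 to 0.49, limma adjusted p = 0.238). These values were only 0.284 to 0.444 above the lowest value of their array. The lowest values were themselves higher on the pull-down arrays (7.76 to 7.77) than on the Control arrays (7.57 and 7.57), and what part this has in the SMAD2 difference was not tested. SMAD3 read 10.61, 11.14 and 10.70 in the pull-down and 11.47 and 10.71 in Control. The groups overlapped, since Control 2 lay level with PD miR-25 3 and below PD miR-25 2. Its log2 fold change was -0.27 (SE 0.275, 95% interval -0.95 to 0.41, limma adjusted p = 0.546), and 0.11 without Control 1.

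SMAD7, the inhibitory SMAD that sends the activated type I receptor for degradation, was dim at both probes. The probe of higher mean read 8.31, 7.85 and 8.03 in the pull-down and 7.81 and 7.97 in Control, 0.0846 to 0.545 above the lowest value of the array. The other probe read 7.93, 7.83 and 7.79 in the pull-down and 7.85 and 8.0025 in Control, 0.0152 to 0.431 above it. The groups overlapped at both, and the signs differed: 0.17 (SE 0.166, 95% interval -0.24 to 0.59, limma adjusted p = 0.522) and -0.08 (SE 0.116, 95% interval -0.37 to 0.21, limma adjusted p = 0.682). So close to the bottom of the scale, a lower level could hardly have been seen for SMAD7.

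TGIF1, a homeodomain corepressor that binds SMAD2 and SMAD3 on DNA and limits their activity, showed the clearest difference of the 10 genes, at both of its probes. The probe of higher mean read 10.86, 10.40 and 10.25 in the pull-down (10.50 ± 0.317, SD, n = 3) and 12.19 and 11.65 in Control (11.92 ± 0.381, SD, n = 2). Even the highest pull-down array was below the lower Control array. The level was 2.68-fold lower (log2 fold change -1.42, SE 0.246, 95% interval -2.03 to -0.81, limma adjusted p = 0.0216). The second probe read 9.80, 9.66 and 9.27 in the pull-down and 11.46 and 10.88 in Control, with the arrays of each group in the same order as at the first. Here the level was 3.01-fold lower (log2 fold change -1.59, SE 0.237, 95% interval -2.18 to -1.004, limma adjusted p = 0.0169). By limma p the TGIF1 probes ranked 934 and 558 of all 14747, so many other probes separated the groups more clearly.

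ID1 and ID2 encode inhibitors of basic helix-loop-helix factors and are direct targets of BMP signaling. ID1 read 8.44, 8.31 and 9.53 on PD miR-25 1, 2 and 3 and 8.16 and 9.30 on Control 1 and 2. In each group 1 array stood far above the rest, PD miR-25 3 and Control 2, so the range within the groups (1.23 and 1.15) far exceeded the difference between them. The log2 fold change was 0.03 (SE 0.487, 95% interval -1.17 to 1.23, limma adjusted p = 0.972), an interval wide enough to hold a 2-fold difference either way. ID2 read 8.73, 8.13 and 8.62 in the pull-down and 7.95 and 8.54 in Control, with ranges within the groups of 0.593 and 0.585. The groups overlapped, Control 2 again being the higher Control array. Its log2 fold change was 0.25 (SE 0.253, 95% interval -0.37 to 0.88, limma adjusted p = 0.543).

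Both ID genes thus varied more among the arrays of a group than between the groups. ID3, the third ID gene and not one of the 10, was likewise highest on PD miR-25 3 (9.72) and higher on Control 2 (9.26) than on Control 1 (8.46), and its log2 fold change was 0.21 (limma adjusted p = 0.756). CDKN1A, the cell cycle inhibitor p21 and a TGF-β target, ran the other way. It read 11.47, 10.96 and 9.80 in the pull-down and 11.84 and 10.37 in Control, lowest on PD miR-25 3 and lower on Control 2 than on Control 1. TGFBR2, BMPR2, SMAD3 and TGIF1 were also lower on Control 2 than on Control 1. ID3 and CDKN1A were picked for this comparison after their values were seen.

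The adjusted p-values of TGIF1 and BMPR2 crossed the threshold when most single arrays were left out, while the sign stayed the same. Leaving out PD miR-25 1, both passed (limma adjusted p = 0.0204 and 0.0347). TGIF1 missed the threshold without PD miR-25 2 (adjusted p = 0.0690), PD miR-25 3 (0.0580), Control 1 (0.126) or Control 2 (0.0642). BMPR2 missed it without PD miR-25 2 (adjusted p = 0.0774), PD miR-25 3 (0.0568), Control 1 (0.165) or Control 2 (0.0907). The second TGIF1 probe passed without PD miR-25 1 (adjusted p = 0.0231) and without PD miR-25 3 (0.0392), and not without PD miR-25 2 (0.0576), Control 1 (0.0952) or Control 2 (0.0566). The sizes moved less than the p-values, from -1.69 to -1.15 for TGIF1 and from -0.85 to -0.63 for BMPR2 at the probes of higher mean. Over the whole table limma called 2172 probes with all arrays, 2389 without PD miR-25 1, 387 without PD miR-25 2, 912 without PD miR-25 3, 91 without Control 2 and 0 without Control 1, where 2958 had an unadjusted p under 0.05.

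**Figure D3:**
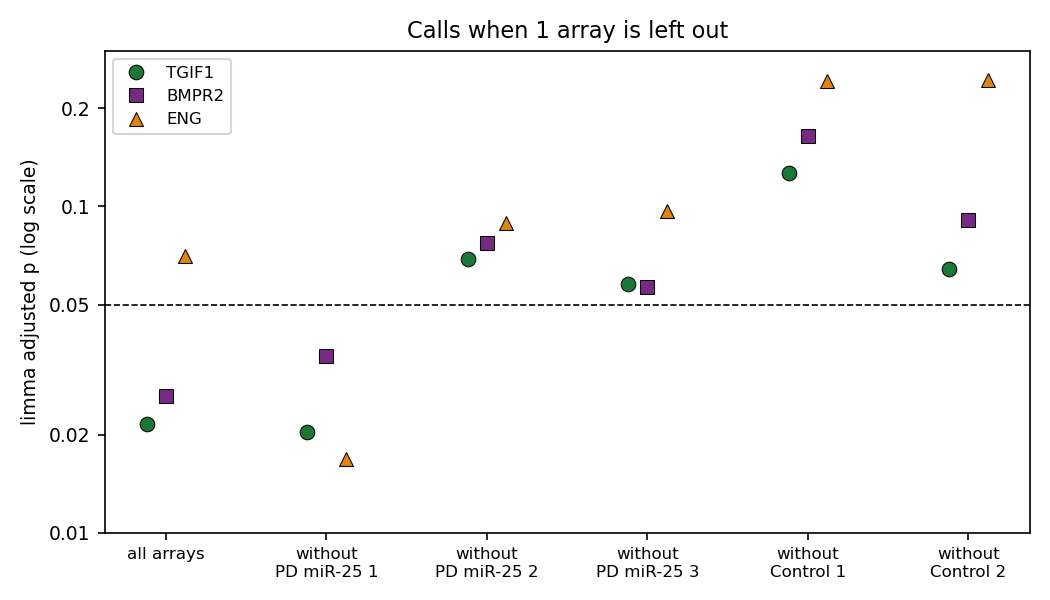
Limma adjusted p (log scale) of TGIF1, BMPR2 and ENG with all arrays and with each array left out in turn, at the probe of highest mean, with the threshold of 0.05 as a dashed line. All 3 genes are under the line without PD miR-25 1, and all are above it when any other single array is left out.

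Over a wider list of 104 genes of the pathway, 60 were measured, of which 1 was called higher and 5 lower by limma. The background for these counts is the 7.10% and 6.72% of all named genes. This wider list was also chosen with earlier results of these data known. The median log2 fold change of the 60 was -0.05. Without the 10 genes above, 50 of 94 were measured, with 1 higher and 3 lower. TGFB1 and TGFBR1, the ligand and the type I receptor, were not analysed here.

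Upstream of the receptors, 2 of 20 ligand genes were measured. GDF11, a ligand of activin type receptors, read 9.31, 9.22 and 9.29 in the pull-down and 10.35 and 10.31 in Control. The groups lay far apart with hardly any spread within them, at a log2 fold change of -1.05 (SE 0.106, limma adjusted p = 0.00937), and its second probe was also lower (-0.63, limma adjusted p = 0.0230). Without Control 1 or Control 2 GDF11 missed the threshold (adjusted p = 0.0808 and 0.0581). TGFB2, a TGF-β ligand, stood at -0.45 (limma adjusted p = 0.0502), with groups that did not overlap. It was dim, with values 0.0814 to 0.845 above the lowest value of their array. Of 22 genes for ligand storage, activation and extracellular antagonists 13 were measured, and 1 was called. This was FSTL1, a secreted follistatin-like protein, with 9.83, 10.87 and 10.50 in the pull-down and 11.93 and 11.52 in Control. All its pull-down values were below both Control values (log2 fold change -1.33, SE 0.323, limma adjusted p = 0.0479), and the call was lost with robust hyperparameters (adjusted p = 0.0518) and without any single array other than PD miR-25 1 (adjusted p = 0.0588 to 0.245). TWSG1, a BMP-binding protein, was highest of that list at 0.29 (limma adjusted p = 0.502).

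Of 14 receptors and coreceptors 7 were measured, and BMPR2 was the 1 called. ENG was the lowest and TGFBR3, the coreceptor betaglycan, the highest of them at 0.01 (limma adjusted p = 0.979), with a median of -0.14. Of 9 SMAD proteins and their anchors 6 were measured and limma called 0. At an unadjusted p under 0.05 it found 0 higher and 0 lower as well, against 16.5% and 14.1% of all named genes. They ran from SMAD3 at -0.27 to SMAD2 at 0.22, with a median of 0.03.

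Of 19 inhibitors and corepressors 16 were measured, with TGIF1 lower and STRAP higher. STRAP encodes an adaptor that binds TGF-β receptors together with SMAD7. It read 12.69, 12.86 and 12.98 in the pull-down and 11.96 and 12.22 in Control. All pull-down values exceeded both Control values, at a log2 fold change of 0.75 (SE 0.146, limma adjusted p = 0.0274). The call was lost after cyclic loess normalization (adjusted p = 0.0532) and without any single array other than PD miR-25 1 (adjusted p = 0.0799 to 0.169). The median of this list was 0.02.

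Of 20 target genes 16 were measured, with a median of -0.05, and 1 was called lower. SNAI2, a zinc finger repressor of epithelial genes, read 11.29, 11.51 and 11.33 in the pull-down and 12.19 and 12.20 in Control. The groups did not overlap, and the log2 fold change was -0.82 (SE 0.120, limma adjusted p = 0.0164), and another probe gave -0.91 (limma adjusted p = 0.0140). SNAI2 missed the threshold without PD miR-25 3 (adjusted p = 0.0525), Control 1 (0.104) or Control 2 (0.0885). CCN1, a matricellular protein gene, was lowest of the list at -1.06 (limma adjusted p = 0.0832), and ID2 was the highest.

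**Figure D4:**
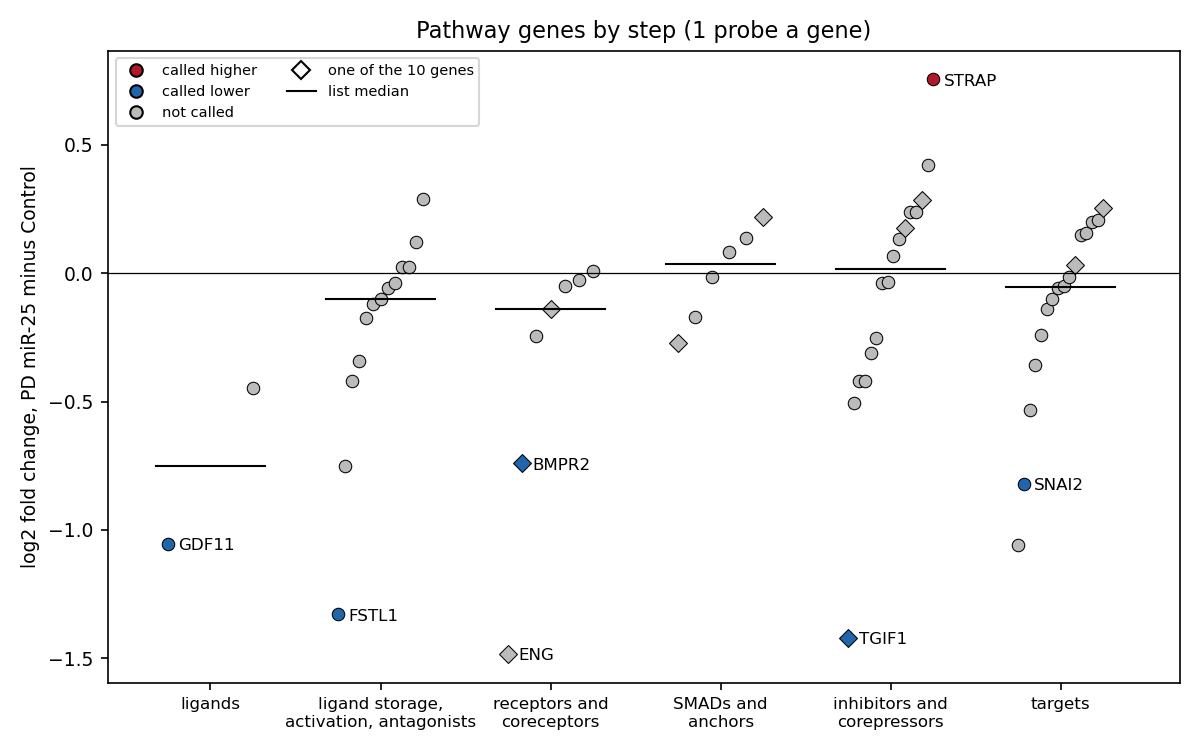
Log2 fold change (PD miR-25 minus Control) of the 60 measured pathway genes, 1 probe a gene, by step of the pathway, with diamonds for the 10 genes, filled colours for called genes and a bar at each list's median. STRAP is the 1 gene called higher, and GDF11, FSTL1, BMPR2, TGIF1 and SNAI2 are called lower, while the medians of all lists but the ligands lie between -0.14 and 0.03.

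The genes most like TGIF1, BMPR2 and ENG over the 5 arrays were found among the other 9267 named genes by the root mean square difference of values centred per probe. PAF1 (0.0914), SMOX (0.140) and WDR83 (0.141) were closest to TGIF1, where the median over all genes was 0.779. Their log2 fold changes were -1.54, -1.27 and -1.38. PRC1 (0.0377), YEATS2 (0.0386) and RPS26 (0.0426) were closest to BMPR2, against a median of 0.439, with log2 fold changes of -0.73, -0.81 and -0.73. PTX3 (0.114), APP (0.132) and CALR (0.169) were closest to ENG, against a median of 0.904. By this choice they shared the low value of PD miR-25 1, reading 9.80, 9.24 and 9.92 there and at least 10.22 on every other array. Their log2 fold changes were -1.34, -1.40 and -1.21. All these genes were picked by likeness over the same 5 arrays, so their shared directions follow from the choice.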

How the data were processed

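RNA was amplified as labelled cRNA and hybridized to Illumina HT-12 arrays, as the study's methods state. The processing notes of the submitters list lumi and limma without versions. The values are the log2 or log2-like normalized expression values deposited by the authors. Which transform lumi applied, log2 or its variance-stabilizing one, is not stated, and under the second, fold changes of dim probes are understated. The table of non-normalized signals was left out, since no label matches its 10 per-sample columns, so detection and background were not examined. The number of arrays limits the precision.

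Gene symbols were those of the platform annotation in GEO, some of which may be outdated: 11970 probes had 1 symbol, 1 had several and 2776 had none, for 9268 genes. Of the named probes, 11963 matched a RefSeq gene ID (0 symbols updated). A gene stands for its probe of highest mean over all 5 arrays.

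Groups were compared with lmFit and eBayes of limma 3.58.1 in R 4.3.3, two-sided, with no covariates and Benjamini-Hochberg over all 14747 probes, with 3 residual and 2.75 prior degrees of freedom and a median SE of 0.15. The fit was also run on simulated data, with independent values whose spread was drawn from limma's own prior. Those data held no pairing and no outlying array, so the run does not show how stable the calls are here. The study took each lysate from the transfected cells of a pull-down, but which belongs to which is not given, and the model left pairing out. The text names every probe of the 10 genes, each called gene and otherwise the highest and lowest of each pathway list, and the 3 genes nearest to the members of lowest p. These members and lists were chosen with earlier results of these data known. Alternatives were other normalizations, variance priors, array weights, a dim probe filter, a replicate block, the study's 2-fold rule, the mean of all probes and leaving out each array.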

Additional observations from a re-analysis of the deposited data

How the results depend on the processing

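The direction of TGIF1, BMPR2 and ENG was the same under every alternative run. Median scaling, cyclic loess, quantile normalization and robust hyperparameters kept the count of 2 genes called lower among the 10, and 0 were called higher under any alternative. It was 3 with an intensity trend, with array weights and without the dimmest 25% of probes, each adding ENG. It was 1 with the 2-fold rule (TGIF1), 1 with the mean of all probes (TGIF1, adjusted p = 0.0191 by limma) and 0 to 3 with 1 array left out. Member probes called numbered 0 to 4 with 1 array left out. Pathway genes called higher numbered 0 after cyclic loess, 0 with the 2-fold rule and 0 to 1 with 1 array left out. Those called lower numbered 10 with an intensity trend, 8 with array weights, 3 with the 2-fold rule and 0 to 7 with 1 array left out. The causes were not tested.

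With 1 array left out the log2 fold change of ID1 ran from -0.54 to 0.60, that of ID2 from -0.0404 to 0.54, that of SMAD3 from -0.65 to 0.11, and those of the TGFBR2 probes from -0.42 to 0.14 and from -0.39 to 0.22. The replicate block left 0 member genes, 0 member probes and 0 pathway genes called in either direction, and 215 probes of the whole table (3398 at an unadjusted p under 0.05, against 2172 called without it). In it TGIF1 had limma adjusted p = 0.0582, BMPR2 0.117 and ENG 0.0877, and ID1 changed sign to -0.36. Number 3 has no Control array, so the block gave the same log2 fold changes as leaving out PD miR-25 3. These were -1.29 for TGIF1, -0.81 for BMPR2, -1.69 for ENG and -0.36 for ID1. The block also had fewer residual degrees of freedom than that fit, so it is not a separate check. The numbers were not taken to pair the samples: deviations of same-numbered arrays correlated at 0.04 for number 1 and -0.43 for number 2 over all probes. PD miR-25 2 correlated at 0.43 with Control 1 and PD miR-25 3 at 0.48 with Control 2, PD miR-25 1 at -0.04 with Control 2 and PD miR-25 3 at -0.48 with Control 1. The deviations of 2 Control arrays mirror each other, so each of these values fixes another. No other pairing was fitted, since no label gives one. Removing the dimmest 25% of probes left 8 of the 10 genes, without SMAD2 and SMAD7.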
